A study of Homo sapiens with 4 samples.

Results

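TRIB3, CHAC1, DDIT4, ASNS and PHGDH are genes that cells turn on when amino acids run short. They were chosen from the authors' comparison of CD26+ replicate 1 with CD26- replicate 1, as 5 of the 6603 genes that a probe set with a single symbol names in that comparison, and they hold 6 of its 8413 probe sets of this kind. The column header of that comparison marks its CD26+ array with a 2, and the pair was identified from the signals: 11403 of the 11404 probe sets it lists beside controls differed at least 2-fold from CD26- replicate 1 on CD26+ replicate 1, against 5914 to 8909 in the other pairs. A place in it needed a difference of about 2-fold between those arrays, so the difference between them chose the genes and is described here without a test. HT29 is a human colorectal cancer cell line. CD26 is a surface peptidase encoded by DPP4, and the study compared HT29 cells sorted by flow cytometry into CD26+ cells (2 arrays) and CD26- cells (2 arrays), grown in the same serum-supplemented medium. RNA of each sorted fraction was hybridised to an Affymetrix human genome U133 Plus 2.0 array, which carries 54613 probe sets beside its controls. The labels number the arrays of each group as biological replicates, and both fractions come from 1 cell line, so the comparison is between fractions of that line.

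When an amino acid is scarce, uncharged tRNA activates the kinase GCN2 (EIF2AK4), which phosphorylates the translation initiation factor eIF2α. Most translation then slows, while translation of the transcription factor ATF4 increases, and ATF4 binds C/EBP-ATF response elements in its target genes. The same factor is reached from endoplasmic reticulum stress through PERK and from haem shortage through HRI, so its targets are shared by several stresses. ASNS makes asparagine and PHGDH opens the serine synthesis pathway. DDIT4 (REDD1) restrains mTORC1, the kinase complex that couples growth to nutrients, TRIB3 is a pseudokinase that binds AKT and ATF4, and CHAC1 degrades glutathione.

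The core of the C/EBP-ATF response element was sought as TGATGNAA on both strands in the 250 bases before the RefSeq start sites of the 5 genes (GRCh38.p14), because it is the element through which ATF4 is known to reach ASNS and CHAC1. It was thus sought where it was already known, and its presence before these genes is shown for its sequence and is no finding. Of the 5 genes 2 held it, ASNS and CHAC1, in 2 of 8 annotated promoters. Of 35116 promoters of all genes 3.14% held it, and of 27305 genes 3.89%. The matches are shown with the bases around them, the motif in capitals, each written in the direction of its gene.
ASNS, chr7:97872429-97872516, minus strand: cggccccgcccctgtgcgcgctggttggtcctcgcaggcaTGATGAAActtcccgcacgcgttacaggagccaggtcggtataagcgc
CHAC1, chr15:40953222-40953309, plus strand: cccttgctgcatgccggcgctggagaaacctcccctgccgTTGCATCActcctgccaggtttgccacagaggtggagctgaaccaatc
The ASNS match began 68 bases before one of its start sites. The CHAC1 match began 209 bases before the start and reads TGATGCAA on the opposite strand. These letters were not in the searched windows of DDIT4, PHGDH or the 3 TRIB3 promoters, nor in that of the other ASNS start site. A match of letters is a description of sequence and not a measurement of binding.

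One array stood apart from the others. CD26+ replicate 2 correlated with the other arrays at 0.30 to 0.33 over all probe sets on the normalized log2 scale, against 0.90 to 0.92 among the others, its median deposited signal was 270.3 against 76.1 to 96.8, and its hybridisation controls had a median of 79202 against 4399 to 5409. Of 12 colon epithelial markers 7 were named in the table, and 4 of those lay above the array median on CD26+ replicate 2, against 6 on CD26+ replicate 1, 6 for CD26- replicate 1 and 7 for the array labelled as CD26- replicate 2, with summed signals of 2881, 57250, 62650 and 132700. The keratin KRT19 had a signal of 50.3 there, against 10708 to 30540 on the other arrays. Not all 7 were lowest on CD26+ replicate 2. CDH17 had 814 there, against 106, 235 and 3622 on CD26+ replicate 1, CD26- replicate 1 and the array labelled as CD26- replicate 2. CDX1 had 380, against 54.0, 20.5 and 1015 in the same order. Of 21 markers of immune, endothelial and fibroblast cells 6 were named, with sums of 2963 to 6860 on the 4 arrays and LYZ the largest part of the sum on all but CD26+ replicate 2. The fibroblast markers among them were highest on CD26+ replicate 2, with signals of 2509 for the higher DCN probe set, 1725 for FAP and 878 for COL1A1, against 19.3 to 58.7, 12.6 to 622 and 22.3 to 330 on the other arrays. The immune marker ITGAM was highest there too by deposited signal, at 148 against 19.8 to 116. On the normalized log2 scale it was lower there than on CD26+ replicate 1, at 6.40 against 7.65. The immune markers CD14 and LYZ were lowest there, at 59.4 against 68.7 to 223 and at 97.2 against 2311 to 6560. With values as deposited, 29382 of all 54613 probe sets were at least 2-fold higher there than on the array labelled as CD26- replicate 2. DPP4, the gate of the sort, went against a label: its probe set 203717_at gave signals of 6649 and 2513 on the CD26+ arrays, against 1952 for CD26- replicate 1 and 6465 for the array labelled as CD26- replicate 2. By the second probe set, 203716_s_at, the CD26+ arrays had 516 and 549, against 203 and 867 for the CD26- arrays in the same order. What part these differences had in the values of the 5 genes was not tested. Each of the 5 genes is therefore given array by array, and with and without CD26+ replicate 2. Other genes are given more briefly, some only by fold changes or by the differences of CD26+ replicate 1.

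Signals are linear units as deposited. Differences between arrays are given on the log2 scale after quantile normalization and addition of 16 units, so that 1 is a 2-fold difference.

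All 5 genes had higher signals on CD26+ replicate 1 than on either CD26- array, and for all of them except CHAC1 the signal on CD26+ replicate 2 was lower than on CD26+ replicate 1. In RNA of a whole fraction, more cells expressing a gene and more of its RNA per cell cannot be told apart. The genes that act on signalling are given first.

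**Figure D1:**
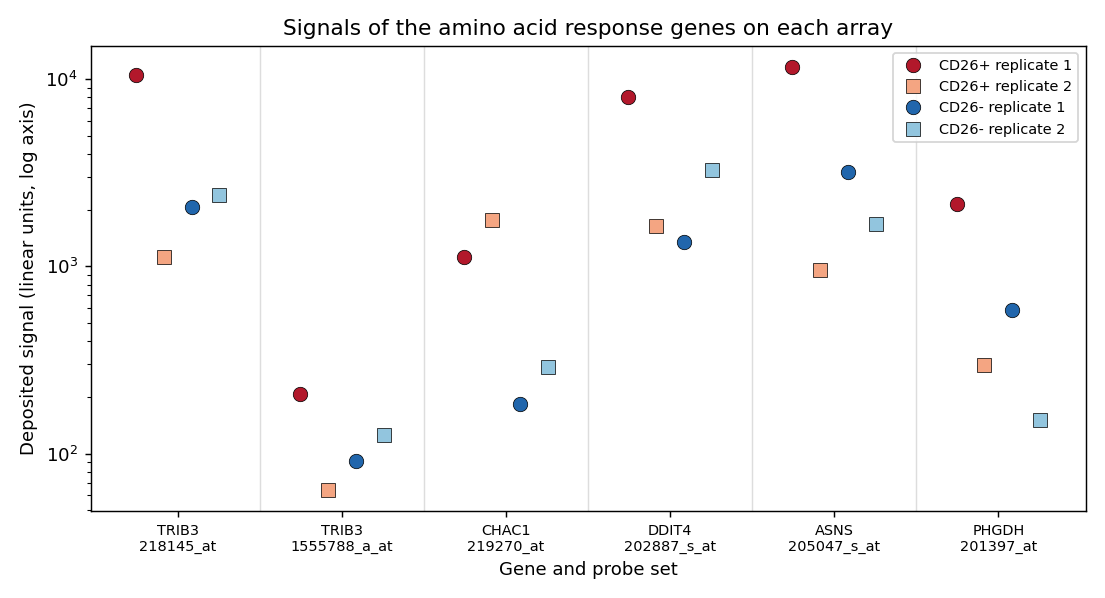
Deposited signal (linear units, log axis) of the 6 probe sets on each array, 1 point per array, with the CD26+ arrays left of the CD26- arrays. CD26+ replicate 1 lies above both CD26- arrays in every probe set, and CD26+ replicate 2 lies above both only for CHAC1, at 1774 against 184 and 292.

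TRIB3 was measured by 2 probe sets, both placed on chromosome 20 by the authors' table, 218145_at at 361486 to 378201 and 1555788_a_at at 361674 to 377379 on the plus strand, and the genome build is not given in the sources used here. Of them the brighter, 218145_at, gave signals of 10486 on CD26+ replicate 1 and 1117 on CD26+ replicate 2, against 2065 for CD26- replicate 1 and 2408 for the array labelled as CD26- replicate 2. The CD26- arrays were within 0.26 of each other on the log2 scale and lay between the CD26+ arrays, so the groups overlapped. CD26+ replicate 1 was 2.18 and 1.92 higher than these CD26- arrays, whereas CD26+ replicate 2 differed from them by -0.62 and -0.88. The dimmer 1555788_a_at had the same order of arrays, with signals of 209 and 63.9 on the CD26+ arrays, against 90.8 for CD26- replicate 1 and 125 for the array labelled as CD26- replicate 2. Its difference between CD26+ replicate 1 and CD26- replicate 1 was the smallest of the 6 probe sets, a signal ratio of 2.30, just inside the 2-fold that chose the genes, and 0.91 on the log2 scale after normalization. Probe sets just outside that limit carry no name in the table.

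CHAC1, whose product cleaves glutathione and so lowers the cell's main thiol antioxidant, was read by 219270_at (chromosome 15, 41245690 to 41248709, plus strand, by the authors' table). It gave signals of 1122 on CD26+ replicate 1 and 1774 on CD26+ replicate 2, against 184 for CD26- replicate 1 and 292 for the array labelled as CD26- replicate 2. It was the only 1 of the 5 genes whose groups did not overlap, which held for 20.5% of all probe sets in this direction. The same held for 1612 of the 6603 named genes, all among the 3813 higher on CD26+ replicate 1 than on CD26- replicate 1. The choice of the 5 genes had already met that part of the condition. The signal ratios of the CD26+ arrays to the CD26- arrays ran between 3.85 and 9.63. On the log2 scale CD26+ replicate 1 was 2.05 and 1.74 higher than CD26- replicate 1 and the array labelled as CD26- replicate 2, and CD26+ replicate 2 was 3.19 and 2.87 higher. CD26+ replicate 2 was 1.14 higher than CD26+ replicate 1 with quantile normalization, but lower, at -0.94, when each array was centred on its median, so the order of the CD26+ arrays is not settled.

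DDIT4 was read by 202887_s_at (chromosome 10, 74033681 to 74035793, plus strand, by the authors' table). Its signals were 8052 on CD26+ replicate 1 and 1645 on CD26+ replicate 2, against 1346 for CD26- replicate 1 and 3253 for the array labelled as CD26- replicate 2. The CD26- arrays here differed by 1.23 on the log2 scale, and the array labelled as CD26- replicate 2 was the higher. CD26+ replicate 1 was therefore 2.37 above CD26- replicate 1 but 1.14 above the array labelled as CD26- replicate 2, the smallest such margin among the brightest probe sets of the 5 genes. CD26+ replicate 2 lay between the CD26- arrays, 0.79 above CD26- replicate 1 and at -0.44 against the array labelled as CD26- replicate 2.

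ASNS, the asparagine synthetase, was read by 205047_s_at (chromosome 7, 97481442 to 97501783, minus strand, by the authors' table). Its signals were 11602 on CD26+ replicate 1 and 961 on CD26+ replicate 2, against 3175 for CD26- replicate 1 and 1687 for the array labelled as CD26- replicate 2. The CD26+ arrays held the highest and the lowest value, with CD26+ replicate 2 at -3.31 against CD26+ replicate 1 on the log2 scale, and the CD26- arrays lay between them, 0.81 apart. CD26+ replicate 1 exceeded CD26- replicate 1 by 1.77 and the array labelled as CD26- replicate 2 by 2.59, and the differences of CD26+ replicate 2 from the same arrays were -1.54 and -0.72.

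PHGDH, the first enzyme of serine synthesis from a glycolytic intermediate, was read by 201397_at (chromosome 1, 120254545 to 120286836, plus strand, by the authors' table). Its signals were 2164 on CD26+ replicate 1 and 297 on CD26+ replicate 2, against 588 for CD26- replicate 1 and 152 for the array labelled as CD26- replicate 2. PHGDH had the largest difference of the 5 genes between the CD26- arrays, 1.68 on the log2 scale. CD26+ replicate 1 was 1.61 above CD26- replicate 1 and 3.29 above the array labelled as CD26- replicate 2. The sign of its difference between CD26+ replicate 2 and the array labelled as CD26- replicate 2 depended on the scaling, at -0.36 after quantile normalization and 0.90 as deposited.

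The array labelled CD26- replicate 2 was not used in choosing the genes, so its distance from CD26+ replicate 1 is a comparison the choice did not fix on that side. At least a 2-fold margin was found for 5 of the 6 probe sets, all but 1555788_a_at, at 0.80. Among all 4721 named probe sets that were higher on CD26+ replicate 1 than on CD26- replicate 1, 33.6% had this margin too. CD26+ replicate 1 is shared by both comparisons, and each has 1 array on a side, so no test applies. The brightest probe set of each of the 5 genes exceeded both CD26- arrays at least 2-fold, as did 4.53% of all probe sets and 12.9% of the named genes, or 22.3% of the named genes that were higher than on CD26- replicate 1. Against CD26- replicate 1 alone, the pair that chose the genes, 11.6% of all probe sets were at least 2-fold higher on CD26+ replicate 1. The margins over both CD26- arrays kept their direction in all 5 scalings, with 5 of 6 probe sets past 2-fold in each.

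CD26+ replicate 2 and the array labelled as CD26- replicate 2 are the pair that took no part in the choice. Between them CHAC1 was at least 2-fold higher on CD26+ replicate 2, at a signal ratio of 6.08, and 1555788_a_at of TRIB3 was at least 2-fold lower after normalization, at -2.18. The other 4 probe sets differed by less than 2-fold after normalization, between -0.88 and -0.36. With values as deposited the TRIB3 probe sets changed places, 218145_at at -1.10 and 1555788_a_at at -0.82. Over all probe sets after normalization, 36.3% were at least 2-fold higher and 32.1% at least 2-fold lower in the same pair, so 1 of 6 in each direction was a smaller share than that of all probe sets. With arrays centred on their medians 4 of the 6 were at least 2-fold lower, against 36.7% of all probe sets. Between the CD26+ arrays, 5 of the 6 probe sets were at least 2-fold lower on CD26+ replicate 2 than on CD26+ replicate 1. The genes were chosen for a high value on CD26+ replicate 1, so this count is partly fixed by the choice, and among the 4721 named probe sets higher there than on CD26- replicate 1 the share was 45.8%.

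The place of each probe set among all probe sets of its array does not depend on the scaling, and it is compared here between arrays and not between genes. TRIB3 218145_at stood at the 98.4 percentile on CD26+ replicate 1 and 87.1 on CD26+ replicate 2, against 91.4 for CD26- replicate 1 and 92.9 for the array labelled as CD26- replicate 2. ASNS stood at 98.6 and 84.2, against 94.4 and 89.8 in the same order, and PHGDH at 91.9 and 52.3, against 78.8 and 58.0. For these 3 genes CD26+ replicate 2 was the lowest array. DDIT4 stood at 97.9 and 92.8, against 87.7 and 94.8, and CHAC1 at 86.2 and 93.6, against 63.7 and 67.8. Of the 5 genes CHAC1 alone had both CD26+ arrays above both CD26- arrays by this measure.

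The fit over all 4 arrays set the group means against the spread between the arrays of each group. CHAC1 averaged 10.73 ± 0.81 in CD26+ cells and 8.26 ± 0.22 in CD26- cells on the normalized log2 scale (SD, n = 2 each), a log2 fold change of 2.46 with a standard error of 0.87. The next, DDIT4, averaged 11.93 ± 1.12 and 10.97 ± 0.87 (0.96 with a standard error of 1.0), and TRIB3 218145_at 11.68 ± 1.98 and 11.03 ± 0.18 (0.65 with a standard error of 1.17). PHGDH averaged 9.16 ± 2.58 and 8.54 ± 1.19 (0.62 with a standard error of 1.46) and ASNS 11.58 ± 2.34 and 11.06 ± 0.58 (0.52 with a standard error of 1.31), in each case CD26+ cells before CD26- cells. For TRIB3 1555788_a_at the fold change was -0.63 with a standard error of 1.21. Apart from CHAC1, no difference exceeded its standard error.

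The adjusted p-values of limma with Benjamini-Hochberg adjustment were 0.79 for CHAC1, 0.791 for DDIT4 and 0.856 to 0.894 for the rest, and since these genes were chosen on 2 of the 4 arrays they describe the fit only. Over all probe sets limma called 0 of 54613, which is 0%, with 852 at an unadjusted p under 0.05, and the methods' t-test called 0 after adjustment with 1847 unadjusted. Without CD26+ replicate 2 the fold changes on the log2 scale were 2.05 (standard error 0.56) for TRIB3 218145_at, 0.86 (0.56) for TRIB3 1555788_a_at, 1.89 (0.57) for CHAC1, 1.75 (0.72) for DDIT4, 2.18 (0.63) for ASNS and 2.45 (0.84) for PHGDH, with adjusted p-values of 0.837 to 0.891 and 0 probe sets called. That fit holds 1 CD26+ array, which is assumed to vary as the CD26- arrays do. Without CD26+ replicate 1, CHAC1 was called higher at 3.03 (adjusted p 0.0126) and TRIB3 1555788_a_at lower at -2.12 (adjusted p 0.0313), in a fit of CD26+ replicate 2 alone against the CD26- arrays that called 23148 of the 54613 probe sets. The other 3 genes and TRIB3 218145_at were not called in it, at -0.75 for TRIB3 218145_at, 0.17 for DDIT4, -1.13 for ASNS and -1.20 for PHGDH.

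**Figure D2:**
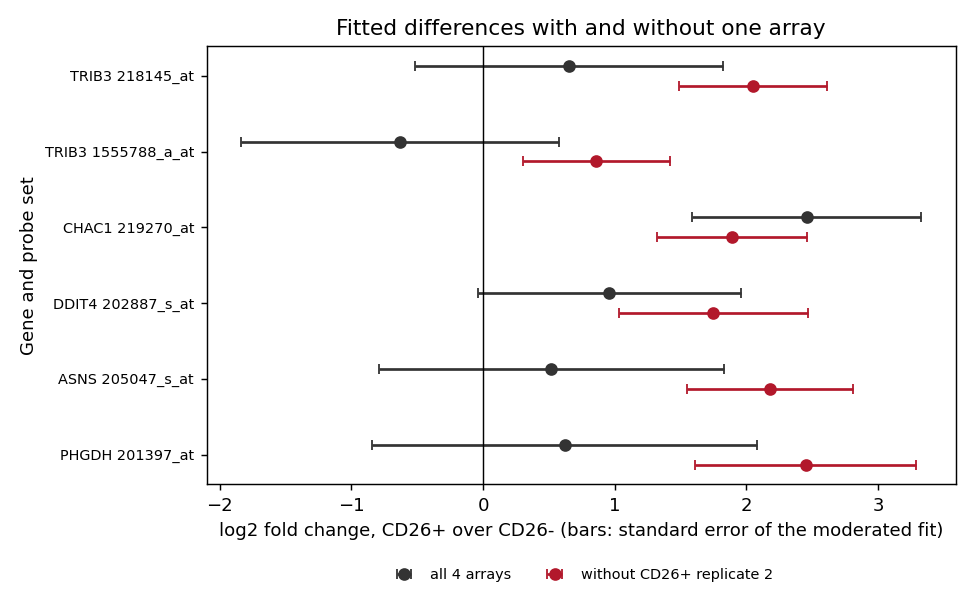
Fitted log2 fold change, CD26+ over CD26-, of each probe set in the fit of all 4 arrays and in the fit without CD26+ replicate 2, with bars of 1 standard error. Without that array every probe set lies above 0, between 0.86 and 2.45, and with it the bars of all but CHAC1 cross 0.

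The other genes of the response were read from 7 lists with 150 genes, of which 70 were named in the table. Being named already required about a 2-fold difference between CD26+ replicate 1 and CD26- replicate 1, so counts are set against the named genes: 12.9% of those were at least 2-fold higher on CD26+ replicate 1 than on both CD26- arrays, and 10.1% at least 2-fold lower, or 23.9% of those lower than on CD26- replicate 1. Of the 70 listed genes 15 were higher and 6 lower by this margin. By limma 0 of the 70 passed the adjusted threshold, and 1 higher and 2 lower had an unadjusted p under 0.05.

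**Figure D3:**
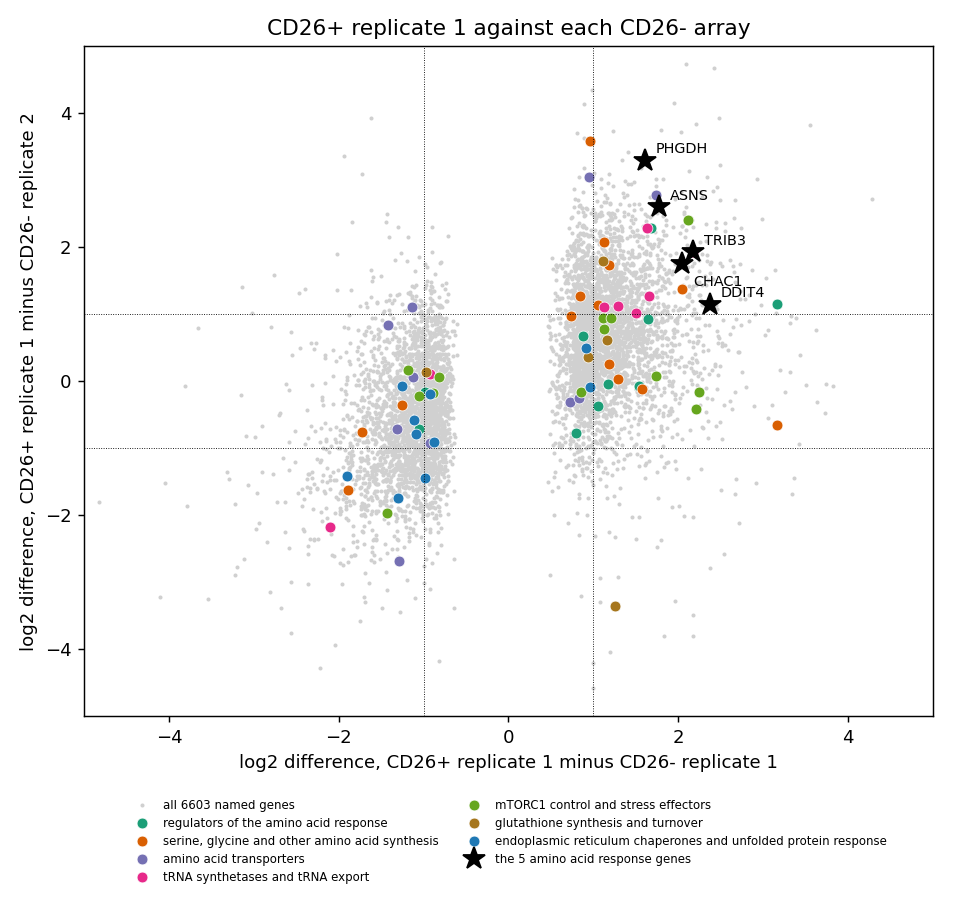
Normalized log2 difference of CD26+ replicate 1 from CD26- replicate 1 (horizontal) and from the array labelled as CD26- replicate 2 (vertical), 1 point per gene, with dotted lines at 2-fold and the gap at the centre made by the choice of named genes. The 5 genes, drawn as stars, lie in the upper right corner beyond 2-fold on both axes, as do 849 of the 6603 named genes, and the axes share CD26+ replicate 1.

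The aminoacyl-tRNA synthetases, which load each amino acid onto its tRNA, had the highest share beside the 5 genes. Of 8 named among 21 listed, 6 were at least 2-fold higher on CD26+ replicate 1 than on both CD26- arrays and 1 was lower, with the same counts in all 5 scalings. The median differences were 1.40 from CD26- replicate 1 and 1.11 from the array labelled as CD26- replicate 2, against 0.81 and 0.19 over all named genes. SARS, which charges serine, gave signals of 9526 on CD26+ replicate 1 and 1312 on CD26+ replicate 2, against 1854 for CD26- replicate 1 and 2194 for the array labelled as CD26- replicate 2. The order of the arrays was that of TRIB3 218145_at, and the margins of CD26+ replicate 1 were 2.17 and 1.92. AARS, for alanine, had 4017 and 1596 on the CD26+ arrays, against 1702 and 1728 on CD26- replicate 1 and the array labelled as CD26- replicate 2. AARS was the only one of the 6 whose groups did not overlap after normalization, with CD26+ higher by 0.76 (standard error 0.83), and under median centring its fold change had the other sign. CARS, for cysteine, YARS, for tyrosine, and GARS and WARS, for glycine and tryptophan and named after their values were seen, made up the 6, with margins of 1.02 to 2.29. FARSB, a subunit of the phenylalanine enzyme, ran the other way, with 70.2 and 53.5 on the CD26+ arrays, against 483 for CD26- replicate 1 and 566 for the array labelled as CD26- replicate 2, a fold change of -3.09 (standard error 0.99, adjusted p 0.79 by limma). RARS, for arginine, had 2462 and 98.3, against 4925 and 2233 in the same order, and its CD26- arrays lay on either side of CD26+ replicate 1. With CD26+ replicate 2 the median fold change of the 8 genes was -0.68, and without it 1.24, against 0.04 and 0.42 over all named genes.

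In the list of serine, glycine and other amino acid synthesis 14 of 24 genes were named, 4 of them at least 2-fold higher on CD26+ replicate 1 than on both CD26- arrays and 1 lower. The enzymes that follow PHGDH are PSAT1 and PSPH, named here for their place in the pathway after their values were seen. PSAT1 had 19906 and 53.8 on the CD26+ arrays, against 9507 for CD26- replicate 1 and 1433 for the array labelled as CD26- replicate 2, and PSPH 5348 and 141, against 2311 and 1118. By these values both had the order of arrays that ASNS had, with the CD26+ arrays at the extremes. PSAT1 was 0.96 and 3.58 higher on CD26+ replicate 1, just under 2-fold against CD26- replicate 1, and PSPH 1.12 and 2.08 higher. PYCR1, which makes proline, was higher on both CD26+ arrays, with 2622 and 2395 against 1040 for CD26- replicate 1 and 706 for the array labelled as CD26- replicate 2, a fold change of 1.77 (standard error 0.84, adjusted p 0.79 by limma). PCK2, mitochondrial PEP carboxykinase, had 2570 and 1574, against 1135 and 1106, and its groups did not overlap either. CTH, which makes cysteine from cystathionine, was 2.05 and 1.38 higher on CD26+ replicate 1 by its brighter probe set. For CTH, SHMT2 and GLUL the probe sets disagreed on whether the groups overlapped and on the sign of the fold change. With the brightest probe set first, the fold changes were -0.18 and 1.34 for CTH and -1.36, 1.63 and -1.07 for SHMT2. For GLUL they were -2.36, 2.15 and 1.94. BCAT2, the mitochondrial branched-chain aminotransferase, was the lower one, at -1.89 and -1.63. SHMT1, the cytosolic serine hydroxymethyltransferase, had a fold change of -1.51 (standard error 0.86), or -1.24 without CD26+ replicate 2. The median fold change of the list was -1.08, and 0.96 without CD26+ replicate 2, against 0.04 and 0.42 over all named genes.

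Of the regulators 10 of 23 were named and 2 were at least 2-fold higher on CD26+ replicate 1 than on both CD26- arrays, JDP2 and NUPR1, while 0 were lower, with 4 higher when arrays were centred on their medians and 1 lower as deposited. ATF4, the factor itself, gave signals of 34658 and 600.2 on the CD26+ arrays, against 16538 for CD26- replicate 1 and 17355 for the array labelled as CD26- replicate 2. It was 0.88 and 0.67 higher on CD26+ replicate 1, less than 2-fold, and lowest on CD26+ replicate 2, and since the factor is controlled in translation its mRNA is a partial measure of it. JDP2, a bZIP partner of AP-1 and ATF factors, had 1842 and 626, against 455 and 311, and NUPR1, a stress-induced chromatin protein named after its values were seen, had 1365 and 309, against 78.7 for CD26- replicate 1 and 579 for the array labelled as CD26- replicate 2. The sensor kinase EIF2AK4 (GCN2) had 660.1 and 759.6, against 256 and 961, so that the CD26- arrays lay on either side of the CD26+ arrays. PPP1R15B, a subunit of the phosphatase that reverses eIF2α phosphorylation, had 1797 and 106, against 3785 and 2014, with a fold change of -2.97 (standard error 1.68). DDIT3 (CHOP), which acts with ATF4 in inducing TRIB3 and CHAC1 and was added after its values were seen, had 991 and 440.0, against 366 and 1098, and did not separate the groups. The remaining genes that the naming rule took were IMPACT, which holds back GCN2, and the eIF2α kinases EIF2AK1 (HRI) and EIF2AK2 (PKR), with fold changes of -2.21, -0.84 and -1.07. Their fold changes without CD26+ replicate 2 were 0.00, 0.73 and -0.89 in the same order.

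**Figure D4:**
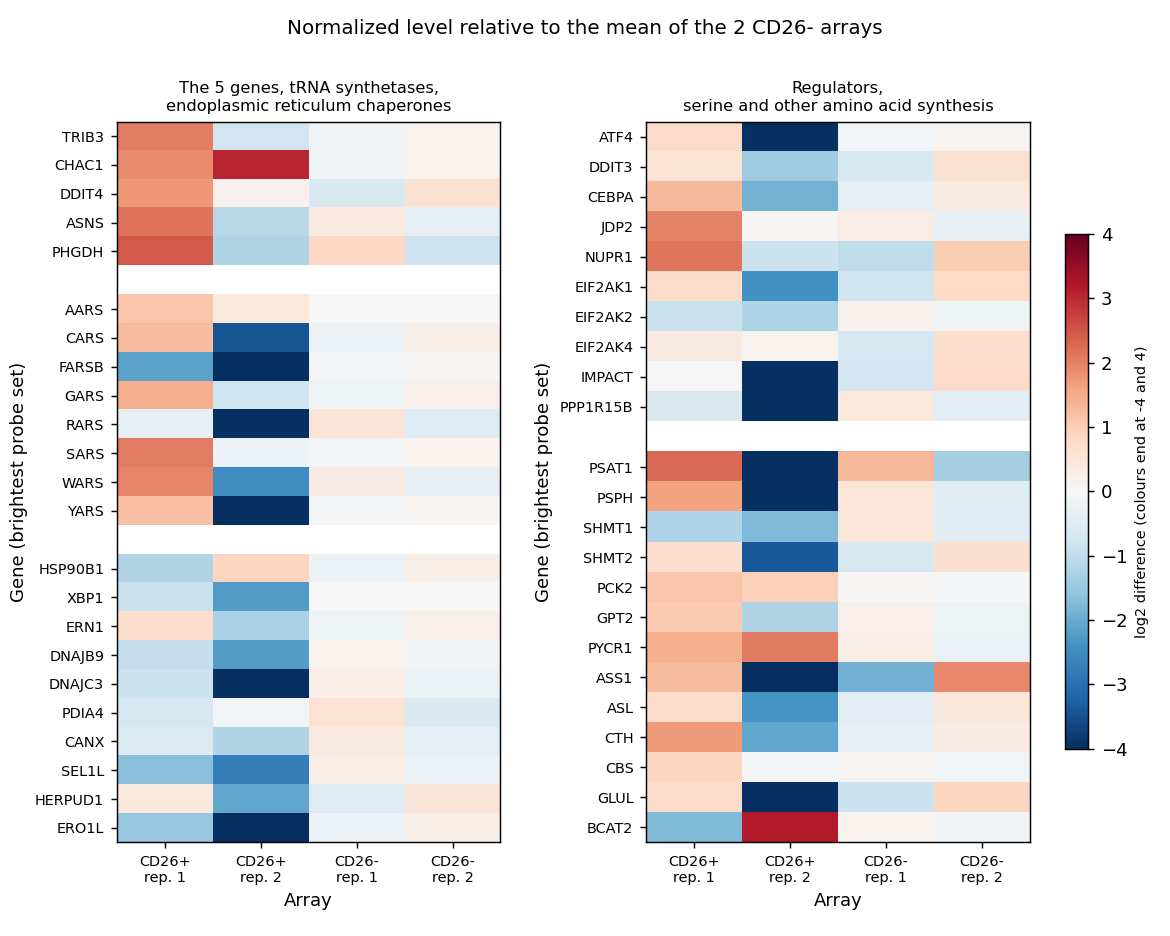
Normalized level of the genes shown (brightest probe set) on each array relative to the mean of the 2 CD26- arrays, in log2 units with colours ending at -4 and 4, CD26+ arrays on the left. CD26+ replicate 1 is above that mean for the 5 genes and 6 of the 8 tRNA synthetases and below it for most endoplasmic reticulum genes. CD26+ replicate 2 is above it for CHAC1 (3.19 and 2.87 over the CD26- arrays), DDIT4, AARS, PYCR1 and PCK2, among others. It is below that mean for ATF4, PSAT1 and YARS, among others.

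Of the amino acid transporters 10 of 20 were named. Of these 1 was at least 2-fold higher on CD26+ replicate 1 than on both CD26- arrays and 1 lower, near the shares of all named genes, with 2 higher and 2 lower as deposited and 2 higher when arrays were centred on their medians. SLC43A1, a carrier of large neutral amino acids, was the higher one, with signals of 2923 and 2008 on the CD26+ arrays, against 733 for CD26- replicate 1 and 341 for the array labelled as CD26- replicate 2. Its fold change of 2.34 (standard error 0.86, adjusted p 0.79 by limma) was close to that of CHAC1, and both CD26+ arrays lay above both CD26- arrays. SLC1A4, which carries alanine, serine and cysteine, had 1106 and 1882, against 503 and 88.2, a fold change of 2.63 (standard error 1.09). SLC38A2 (SNAT2), a transporter induced by amino acid shortage, was lower on the CD26+ arrays, at 2841 and 1005 against 7413 and 4471, with a fold change of -1.66 (standard error 0.91). SLC38A9, the arginine sensor of mTORC1 at the lysosome, had 432 and 86.5, against 973 and 1031, and SLC7A6 and SLC36A4 had fold changes of -2.69 (standard error 1.58) and -2.29 (1.79). The other SLC7A6 probe sets disagreed in sign, at -1.44 and 0.39. When CD26+ replicate 2 was left out, SLC7A6 by its brightest probe set was at -0.53 and SLC36A4 at 0.29. SLC6A14 was the lower one by the 2-fold margin, at -1.29 and -2.68.

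Among genes of mTORC1 control and other stress effectors 13 of 29 were named, and 1 was higher and 1 lower by the margin over both CD26- arrays, with 3 higher when arrays were centred on their medians and 2 with an added constant of 1. EIF4EBP1 (4E-BP1), the translation repressor that mTORC1 inactivates and a known ATF4 target, gave signals of 2498 and 963 on the CD26+ arrays, against 445 for CD26- replicate 1 and 389 for the array labelled as CD26- replicate 2. CD26+ replicate 1 was 2.12 and 2.41 higher, the groups did not overlap, and the fold change was 1.65 (standard error 0.89, adjusted p 0.79 by limma). TRIB2, the paralogue of TRIB3, ran the other way on CD26+ replicate 1, with 112 against 441 and 755, and had 6109 on CD26+ replicate 2. SESN2, a leucine sensor that restrains mTORC1 and was added after its values were seen, was 1.13 and 0.78 higher on CD26+ replicate 1 by one probe set and 1.24 and 1.81 higher by the other. The remaining genes taken by the rule had fold changes of -2.75 for AKT2, -1.92 for MAP1LC3B, 1.26 for KLHL24, 0.69 for SESN3 and -1.12 for TXNIP, with standard errors of 0.82 to 1.66. The probe sets of KLHL24 disagreed in sign, at 1.26 for the one that stands for the gene and -0.11, -0.13 and -2.21 for the others, and so did those of TXNIP, with 0.91 for one of the others. When CD26+ replicate 2 was left out, AKT2 was at -0.64, MAP1LC3B at 0.35, KLHL24 at 1.04, SESN3 at 1.03 and TXNIP at 0.90, by the brightest probe sets.

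Glutathione genes, set beside CHAC1, had 5 of 10 named, 1 higher by the margin over both CD26- arrays and 0 lower. GPX2, the gastrointestinal glutathione peroxidase, was the higher one, with 36633 and 1148 on the CD26+ arrays, against 15329 for CD26- replicate 1 and 8901 for the array labelled as CD26- replicate 2. GGT1, which breaks down glutathione outside the cell, had 753 and 1324, against 271 and 494, so that both CD26+ arrays were above both CD26- arrays, as for CHAC1, with a fold change of 1.39 (standard error 0.87). GPX4, the lipid peroxidase, was at 0.47 (0.82), GCLM, a subunit of the first enzyme of glutathione synthesis, at -3.04 (1.81), and ANPEP at -1.65 (1.65). GPX4, GCLM and ANPEP were at 0.65, -0.42 and -1.04 when CD26+ replicate 2 was left out.

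Endoplasmic reticulum chaperones and other unfolded protein response genes share the ATF4 arm through PERK but also have arms of their own. Of 23 listed, 10 were named, and being named required a difference in the pair that chose the table. Of these 10, 8 were lower there than on both CD26- arrays and 1, ERN1, was higher (7 and 2 when values were kept as deposited or centred on their medians), while 2110 and 3036 of the 6603 named genes were lower and higher. By the 2-fold margin 2 were lower, SEL1L and ERO1L, and 0 higher, so that 2 of the 8 lower than CD26- replicate 1 passed it, near the 23.9% of all such named genes, with 3 or 4 lower under the other scalings except a larger added constant, which gave 2. The median differences were -1.03 from CD26- replicate 1 and -0.69 from the array labelled as CD26- replicate 2. The median fold change was -1.22, or -0.87 without CD26+ replicate 2, against 0.04 and 0.42 over all named genes. SEL1L, of the machinery that exports misfolded proteins, had 38.1 and 60.9 on the CD26+ arrays, against 214 for CD26- replicate 1 and 163 for the array labelled as CD26- replicate 2, a fold change of -2.20 (standard error 0.88, adjusted p 0.79 by limma). ERO1L, the oxidase that renews disulfide formation, had 793 and 23.2, against 2296 and 3030. The co-chaperone DNAJB9 had 283 and 292, against 771 and 647, and DNAJC3 had 2660.4 and 122, against 6031 and 3865. The dimmer DNAJC3 probe set was lower only on CD26+ replicate 1, with 53.9 and 1238, against 195 and 112. XBP1, the transcription factor of the IRE1 arm, had 44.8 and 57.5, against 94.3 and 121, and CANX (calnexin) differed by -0.92 and -0.20 on CD26+ replicate 1. HSP90B1 (GRP94), chosen after its values were seen, was lower only on CD26+ replicate 1, with 2757 and 7667, against 5691 and 6813.

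Of the listed genes named in the table, 59 had a RefSeq promoter, and 7 of those, or 11.9%, held TGATGNAA on either strand: PPP1R15B, GARS1 (GARS), JDP2, TSC2, HERPUD1, AARS1 (AARS) and SLC1A5. The share over all 27305 genes was 3.89%, and the lists were drawn up for this response. AARS, GARS and JDP2 were among the 15 of 70 listed genes at least 2-fold higher on CD26+ replicate 1 than on both CD26- arrays. PPP1R15B, TSC2, HERPUD1 and SLC1A5 were not, and PPP1R15B was lower on CD26+ replicate 1, at -0.98 and -0.16. Among the 5 genes, the motif stood before ASNS and CHAC1, whose array profiles were unlike each other.

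The likeness of each named gene to the mean profile of the 5 was measured as the Euclidean distance between normalized log2 profiles over the 4 arrays, each centred on its own mean. The mean profile was 1.54 on CD26+ replicate 1, -0.50 on CD26+ replicate 2, -0.45 for CD26- replicate 1 and -0.59 for the array labelled as CD26- replicate 2. Of the 5 genes TRIB3 was closest to it, at 0.72, followed by DDIT4 at 1.02, ASNS at 1.14 and PHGDH at 1.63, and CHAC1 was farthest at 2.68. The closest other genes were SEC14L2 (0.22), FKBP8 (0.25), LOC100127980 (0.30), LOC284930 (0.33) and JDP2 (0.33). The first 4 had signals of 91.2 to 270 on CD26+ replicate 1 and at most 37.0 on the CD26- arrays, and JDP2 is a regulator of the same response.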

How the data were processed

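RNA of sorted HT29 cells was measured on 4 Affymetrix arrays, 2 CD26+ and 2 CD26-. The deposited table of values holds the intensity of each probe set, on a linear scale. The authors' methods name Genespring GX and Genomatix Genome Analyzer for the analysis of the array data. Summarization, scaling and build were not given in the sources used here. A trimmed mean near 500.1 on every array shows a common scaling. A second deposited table is the authors' comparison of 1 CD26+ with 1 CD26- array, with the deposited fold as an unsigned ratio, as a signed score and as log2. Those values were not used. Of the table only the 11430 probe set names, symbols, Entrez identifiers and positions were taken, and only those with 1 symbol were named. All 5 genes matched RefSeq by Entrez identifier, and 8 listed symbols now have another name.

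Signals were quantile normalized across arrays without the 62 control probe sets, 16 was added and log2 taken. The fit was limma 3.58.1 in R 4.3.3 (lmFit, eBayes, two-sided, Benjamini-Hochberg over 54613 probe sets, threshold 0.05), CD26+ minus CD26- without a replicate term, and was tested on simulated data. Each gene was represented by its brightest probe set on average. With 2 arrays a group an exact permutation test of 1 value cannot give a two-sided p below 0.33, so none was run, and the precision is limited by the number of arrays. Named genes were the 5 genes, in each list up to 6 with the largest moderated statistic, the 5 genes most alike in profile, and DPP4, and 1 gene that the rule took is not reported here. The 5 genes, the lists and the tests were chosen with earlier results of these data known. Alternatives were the scaling, the added constant, a filter on dim probe sets, another prior, a replicate block, the methods' t-test and leaving out each array.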

Additional observations from a re-analysis of the deposited data

How the results depend on the processing

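Over all probe sets limma called 0 under each scaling, added constant, filter and prior tried, and the methods' t-test called 0 after adjustment. The fit with a replicate block called 1, 216892_at, which has no name here (log2 fold change 7.39, adjusted p 0.0409). Arrays with the same number did not deviate together (r = 0.037), so the block describes a shared number only, and under it none of the 6 probe sets changed direction or call. Leaving out 1 array gave 0 to 23148 calls, the highest without CD26+ replicate 1. When arrays were centred on their medians the fold changes of TRIB3 218145_at and ASNS turned to -0.08 and -0.16, and with values as deposited that of TRIB3 1555788_a_at to 0.13. It was 1.04 when CD26+ replicate 2 was dropped before the other 3 were normalized. The cause was not tested. Leaving out 1 array, the fold changes ranged from -0.75 to 2.05 for TRIB3 218145_at, -2.12 to 0.86 for TRIB3 1555788_a_at, -1.13 to 2.18 for ASNS, 1.89 to 3.03 for CHAC1, 0.17 to 1.75 for DDIT4 and -1.20 to 2.45 for PHGDH, which was -0.22 without the array labelled as CD26- replicate 2. CHAC1 and DDIT4 kept their direction in all alternatives. Of the 70 listed genes the fold change had the other sign in 27 without CD26+ replicate 2, and in 6 to 10 under each of the other settings tried. Names exist only for genes that differed about 2-fold in the first pair of arrays, which limits every count of genes.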
